A study of Mus musculus with 9 samples.

Results

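The 7 genes Abcg2, Abcb1a, Abcb1b, Abcc1, Abcc4, Abcc5 and Abca1 encode ATP-binding cassette (ABC) transporters that export drugs, conjugates, nucleotides or lipids from cells. They were taken by symbol from a table of 55492 genes, and each symbol stood on 1 row. The table holds poly(A) RNA from 9 libraries of D2.0R (also spelled D2.OR), a mouse mammary adenocarcinoma cell line used as a model of breast cancer dormancy. The cells were stained with CellTrace Far Red (CTFR), a dye that thins out at every division, grown for 1 week with 2% FBS (stock cultures had 10%) and sorted for cells that kept the dye and cells that had lost it. All libraries share the line, the dye, the low serum and the week of culture.

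The labels name 3 kinds of sample (CTFRpos, bulk and CTFRneg), each numbered 1 to 3. They do not say which library is of which kind, so 0 of the 9 libraries have a group. Libraries are called by their title numbers, the values of a run are given in the order of those numbers, and values are arranged in the 3 runs of title numbers (1 to 3, 4 to 6 and 7 to 9) and by place within a run. This arrangement is a description only: a title number names no kind of sample, and no test between arrangements was made. Library totals lay between 18732737 estimated counts in library 9 and 41243036 in library 7, and levels are given as CPM, counts scaled to a common library size. Because the cells were a cultured line, markers of other tissues were checked once. The 4 leukocyte markers and the 3 endothelial markers stayed under 1 CPM in every library, with Ncr1 and Cdh5 at 0 counts throughout. Of the 6 markers of mammary epithelium, Krt8, Krt18 and Cdh1 passed the filter on low counts, while Epcam reached at most 0.219 CPM and Krt5 at most 0.0284 CPM. Of the 5 fibroblast markers, Pdgfra, Pdgfrb and Col1a1 were abundant and Dcn and Lum were not, with summed levels of 2036 to 5133 CPM.

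ABC exporters couple the binding and hydrolysis of ATP to the movement of a substrate across a membrane. ABCG2 (breast cancer resistance protein) pumps out dyes and drugs and is one cause of the dye-excluding side population by which stem-like cells are often sorted. P-glycoprotein, which mice encode with the sister genes Abcb1a and Abcb1b, exports hydrophobic drugs. Abcc1, Abcc4 and Abcc5 encode multidrug resistance proteins that carry anionic conjugates and nucleotides, and Abca1 encodes the exporter that loads cholesterol and phospholipid onto apolipoproteins.

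Of the 7 genes, 6 passed the filter on low counts, and Abcc4 did not. Each of the 6 differed among the libraries beyond counting noise, as did 94.1% of all 12813 genes tested (chi-square test of dispersion, Benjamini-Hochberg adjusted over all tested genes). A gene is called variable here when it passed that test and spanned 2-fold or more between its extreme libraries, that is 1 in log2 CPM. By this rule 4 of the 6 were variable (Abcg2, Abca1, Abcb1a and Abcb1b), against a background of 28.0% of the genes tested. The median range of the 6 was 1.15 in log2 CPM, against 0.69 over all tested genes. The genes were chosen with earlier results of these data known, so neither comparison shows anything particular to them. The adjusted p was 6.98e-223 for Abca1 and 2.81e-173 for Abcc5, and was too small to be held as a number for the other 4. The test does not tell biological differences from those of sorting or library preparation.

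**Figure D1:**
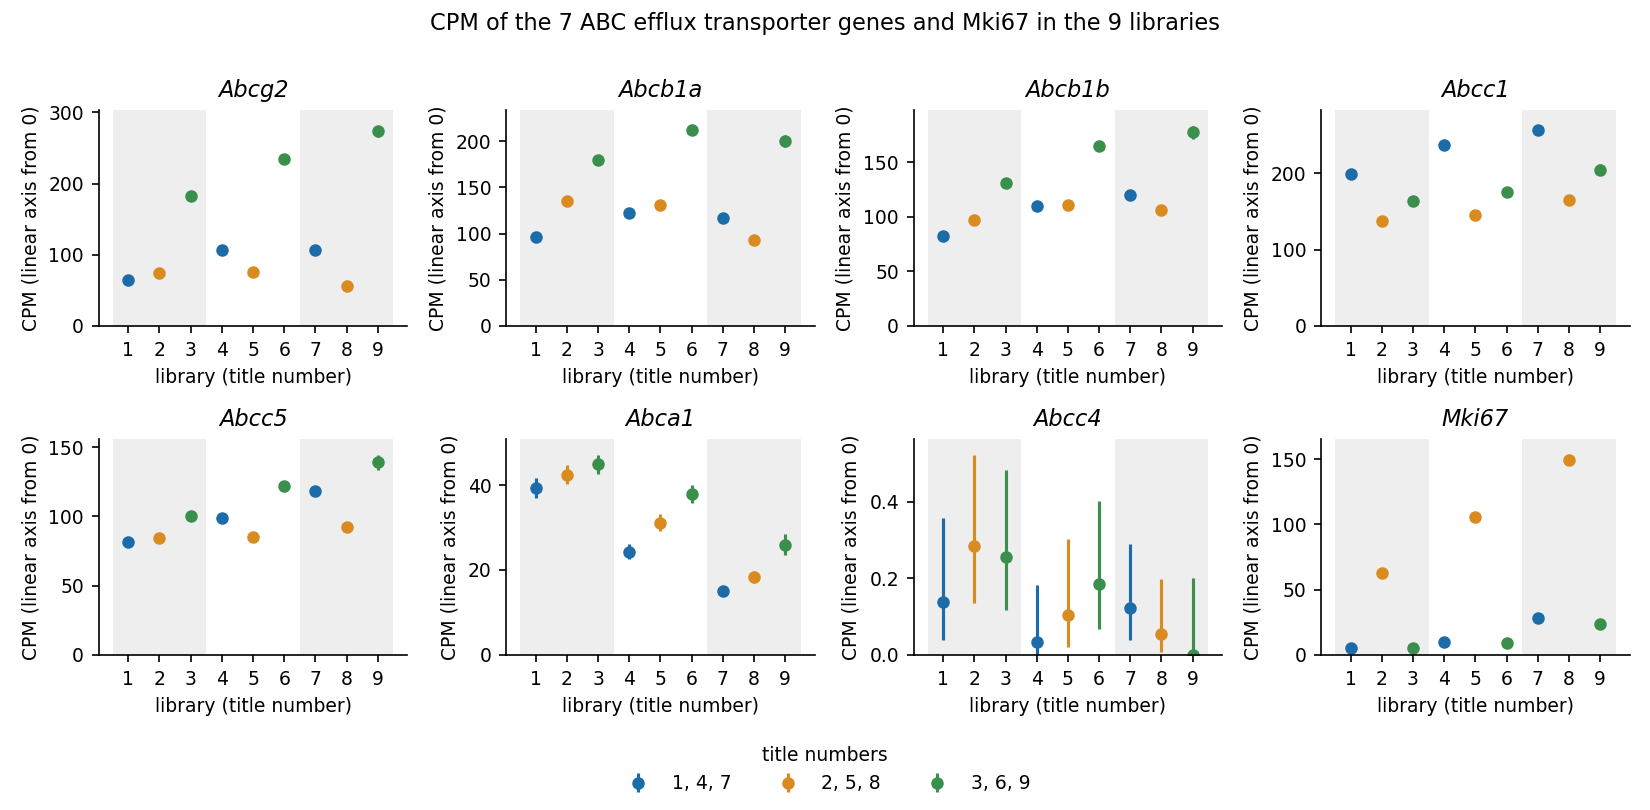
CPM (linear axis from 0) of the 7 transporter genes and of Mki67 in each of the 9 libraries, with exact 95% Poisson intervals that cover counting error only. Colours mark the place within a run of 3 title numbers and shading marks the runs 1 to 3 and 7 to 9. Abcg2, Abcb1a and Abcb1b sit highest in libraries 3, 6 and 9, while Abca1 is lower in each later run.

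Abcg2 (ENSMUSG00000029802, protein-coding, chromosome 6 at 58584523 to 58695676 on the plus strand of GRCm38) had the widest range of the 6. Its level was 64.9, 74.9 and 183 CPM in the run 1 to 3, 107, 75.3 and 234 CPM in the run 4 to 6, and 107, 55.98 and 274 CPM in the run 7 to 9. Libraries 3, 6 and 9 thus lay above the other 6 without overlap, an arrangement shown by 5.15% of all tested genes. Library 9, the highest, exceeded library 8, the lowest, 4.89-fold (95% interval 4.64 to 5.15, counting error only). The range of 2.29 in log2 CPM was wider than that of 95.9% of tested genes.

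Within each run the third library stood above both others for Abcg2. The ratio of the third to the first library was 2.82 (2.68 to 2.97) for library 3 over library 1, 2.19 (2.10 to 2.28) for library 6 over library 4 and 2.56 (2.45 to 2.66) for library 9 over library 7. The ratio of the third to the second library was 2.44 in the run 1 to 3, 3.11 in the run 4 to 6 and 4.89 in the run 7 to 9. The second library had no fixed place against the first: library 2 was 1.16 times library 1 (1.09 to 1.23), while library 5 was 0.704 times library 4 (0.667 to 0.744) and library 8 was 0.523 times library 7 (0.496 to 0.552).

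Abcg2 was low both in libraries with much Mki67, the gene of the division marker Ki-67, and in a library with little. Mki67 stood at 62.9, 106 and 149.5 CPM in libraries 2, 5 and 8, where Abcg2 had 74.9, 75.3 and 55.98 CPM. It stood at 5.64 CPM in library 1, where Abcg2 had 64.9 CPM. In libraries 4 and 7 Mki67 stood at 9.79 and 28.1 CPM, and Abcg2 at 107 CPM in both, above its level in libraries 2, 5 and 8. In libraries 3, 6 and 9 Mki67 stood at 4.98, 9.20 and 24.1 CPM, and Abcg2 at 183, 234 and 274 CPM. Libraries 3 and 1 had overlapping counting intervals of Mki67 (4.98 and 5.64 CPM) while Abcg2 was 2.82-fold higher in library 3. Mki67 in library 6 was 0.94 times that in library 4 (0.798 to 1.11). In library 9 it was 0.857 times that in library 7 (0.766 to 0.957), an interval below 1. A link between Mki67 and Abcg2 was not tested. In bulk RNA, more cells that express a gene and more RNA of it per cell cannot be told apart.

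Traces of adipocyte markers ran partly beside Abcg2. The summed level of both markers, Adipoq and Plin1, was 2.26, 2.33 and 1.86 CPM in libraries 3, 6 and 9 and 0.383 to 1.90 CPM in the other 6. Neither marker passed the filter and neither was at 0 in any library. Their part in the Abcg2 result was not tested.

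Abcb1a (ENSMUSG00000040584, chromosome 5 at 8660077 to 8748575) and Abcb1b (ENSMUSG00000028970, chromosome 5 at 8798147 to 8866315) lie side by side on the plus strand and both encode P-glycoprotein. Abcb1a had 96.7, 136 and 179 CPM in the run 1 to 3, 122, 131 and 212 CPM in the run 4 to 6, and 116, 92.5 and 201 CPM in the run 7 to 9. Abcb1b had 82.1, 97.4 and 131 CPM in the run 1 to 3, 109.9, 110.5 and 165 CPM in the run 4 to 6, and 120.2, 106 and 177 CPM in the run 7 to 9. For both genes libraries 3, 6 and 9 were again above the other 6 without overlap.

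Abcb1a was highest in library 6 and lowest in library 8, which differed 2.29-fold (2.20 to 2.38). Abcb1b was highest in library 9 and lowest in library 1, which differed 2.16-fold (2.05 to 2.28), and without library 1 its range fell to 0.87 in log2 CPM, so it was no longer variable. The third library exceeded the first 1.72 to 1.86 times for Abcb1a and 1.48 to 1.59 times for Abcb1b over the 3 runs, and each of these 6 intervals lay above 1. The sisters did not always move together. In library 8 over library 2, Abcb1a was lower (0.683, interval 0.653 to 0.714) and Abcb1b was higher (1.09, interval 1.04 to 1.14). The share of Abcb1a in the counts of the pair was accordingly 46.6% in library 8 (exact binomial 95% interval 45.4 to 47.7), against 58.2% in library 2 (57.1 to 59.3), the lowest and highest of the 9 libraries. Their summed level was 310.1, 377 and 378 CPM in libraries 3, 6 and 9 and 179 to 242 CPM in the other 6.

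Because sister genes can share reads, the transcripts of the pair were compared. Their coding sequences of 3828 bases each were identical at 88.0% of 3819 aligned bases. In windows of 50 bases, 840 of 4948 windows of the Abcb1a transcript (17.0%) and 779 of 4257 of the Abcb1b transcript (18.3%) also occurred in a transcript of another gene, and with windows of 100 bases the shares were 7.72% and 8.72%. Reads from such windows can be divided between genes only by estimation, so the values of the pair are less certain than those of the other 5 genes, which shared 0 windows of 50 bases with any other gene. The stretch of 120 coding bases around the first phosphate-binding loop, where ATP is held, is shown because it is among the parts in which the sisters are hardest to tell apart. Capitals mark the 4 bases that differ.
Abcb1a: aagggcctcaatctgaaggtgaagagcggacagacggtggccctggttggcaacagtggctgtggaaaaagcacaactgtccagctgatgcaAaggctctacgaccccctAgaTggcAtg
Abcb1b: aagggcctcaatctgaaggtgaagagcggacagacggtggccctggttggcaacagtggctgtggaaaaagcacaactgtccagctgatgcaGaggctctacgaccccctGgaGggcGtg
These are coding bases 1219 to 1338 of Abcb1a and 1228 to 1347 of Abcb1b, in the longest coding transcript of each gene in GENCODE M21. The same stretch around the second loop differed at 3 of 120 bases.

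**Figure D2:**
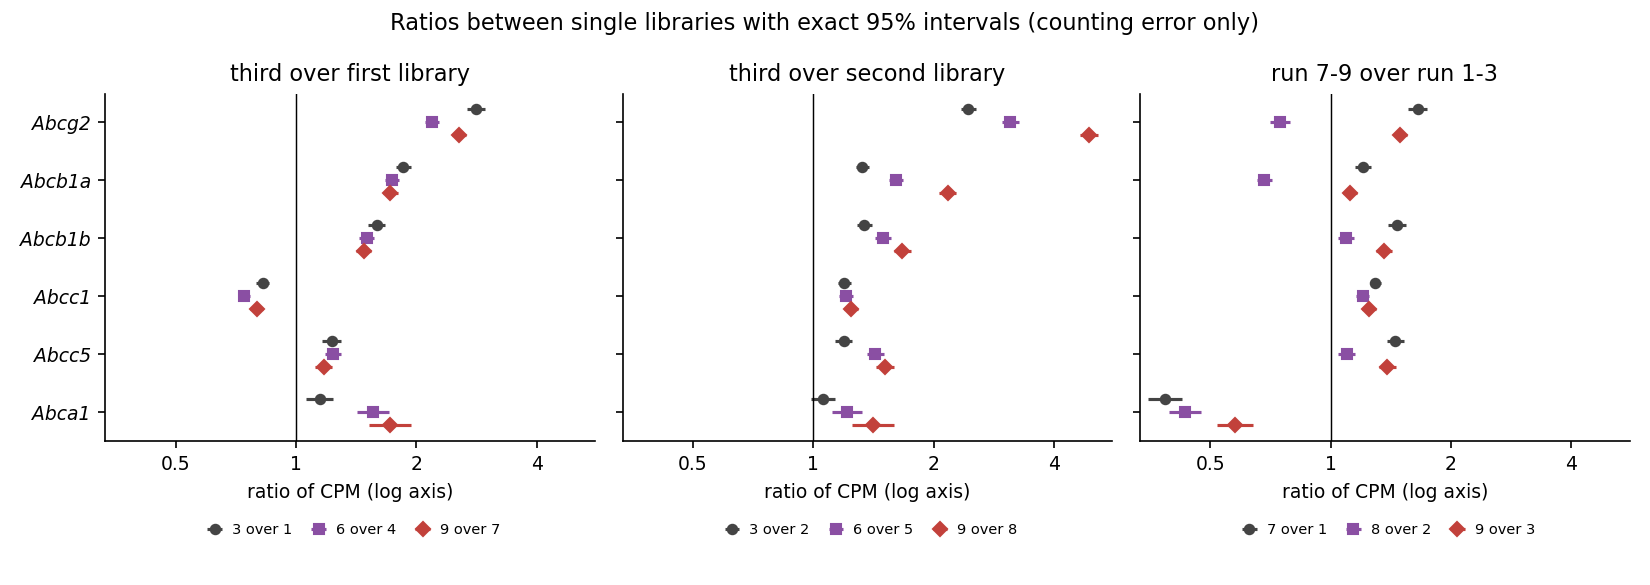
Ratio of CPM between single libraries (log axis) for the 6 transporter genes above the filter, with exact 95% intervals for counting error. The left and middle panels set the third library of each run over the first and the second, and the right panel sets libraries 7, 8 and 9 over libraries 1, 2 and 3. Abcc1 is below 1 in the left panel, and Abca1 is below 1 in the right panel at all 3 places.

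Abcc1 (ENSMUSG00000023088, chromosome 16 at 14361558 to 14475737, plus strand) encodes multidrug resistance protein 1, which exports glutathione conjugates and leukotriene C4. Its level was 199, 137 and 164 CPM in the run 1 to 3, 237, 146 and 176 CPM in the run 4 to 6, and 257, 165 and 205 CPM in the run 7 to 9. In each run the first library was highest and the second lowest, and among the 6 genes this order was that of Abcc1 alone. Other genes of the family shared it, Abca8b and Abcf1 among them. Over all tested genes, the first library was highest in all 3 runs for 15.4% and the second was lowest in all 3 for 29.5%.

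The third library was 0.742 to 0.825 times the first for Abcc1, and the second was 0.614 to 0.690 times the first, with all 6 intervals below 1. Levels were also higher in each later run at every place. Libraries 7, 8 and 9 were 1.29, 1.20 and 1.25 times libraries 1, 2 and 3. The range of 0.91 in log2 CPM, 1.87-fold between libraries 7 and 2, was under the 2-fold threshold, so Abcc1 was not called variable.

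Abcc5 (ENSMUSG00000022822, chromosome 16 at 20331303 to 20426394, minus strand) encodes multidrug resistance protein 5, an exporter of cyclic nucleotides and nucleotide analogues. It had 81.7, 84.1 and 100.2 CPM in the run 1 to 3, 98.6, 85.4 and 122 CPM in the run 4 to 6, and 119, 92.2 and 139 CPM in the run 7 to 9. The third library was the highest of each run, at 1.17 to 1.24 times the first, but libraries 3, 6 and 9 did not all exceed the other 6, since library 7 lay above library 3. Levels were higher in each later run at every place, with library 5 over library 2 the one step whose interval included 1 (1.02, interval 0.962 to 1.07). The rise at every place was shared with 13.5% of tested genes. The range was 0.77 in log2 CPM (1.70-fold, libraries 9 and 1), short of the threshold.

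Abcc4 (ENSMUSG00000032849, chromosome 14 at 118482692 to 118706219, minus strand) encodes multidrug resistance protein 4, an exporter of cyclic AMP and prostaglandins. It was close to undetected. Its estimated counts were 4, 10, 9, 1, 3, 6, 5, 2 and 0 in libraries 1 to 9, and its highest level was 0.284 CPM in library 2. In library 9 the count of 0 had an upper limit of 0.202 CPM (exact Poisson 95% interval), so no order of the libraries can be read at this depth.

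Abca1 (ENSMUSG00000015243, chromosome 4 at 53030787 to 53159895, minus strand) was arranged by run and not mainly by place. It had 39.2, 42.5 and 44.9 CPM in the run 1 to 3, 24.3, 31.1 and 37.8 CPM in the run 4 to 6, and 15.1, 18.4 and 25.9 CPM in the run 7 to 9. Libraries 1, 2 and 3 all lay above the other 6, as for 3.92% of tested genes, and at every place each later run was lower than the run before, as for 12.6%. Library 7 was 0.385 times library 1 (0.348 to 0.425), library 8 was 0.433 times library 2 (0.395 to 0.475) and library 9 was 0.578 times library 3 (0.520 to 0.641). Libraries 3 and 7, the highest and lowest, differed 2.98-fold (2.71 to 3.27).

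Within runs Abca1 also had its maximum in the third library. The first library was lowest in every run, as for 11.6% of tested genes, and the third was highest, at 1.15 (1.06 to 1.24), 1.55 (1.42 to 1.71) and 1.72 (1.52 to 1.94) times the first, although the interval of library 3 over library 2 included 1 (1.06, interval 0.984 to 1.14). In all, the third library was the highest of every run for 5 of the 6 genes above the filter (Abcg2, Abcb1a, Abcb1b, Abcc5 and Abca1), against 12.1% of all tested genes. Nothing particular to these genes can be read from that count, since they were chosen with earlier results in view.

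Per length, the levels of 5 of the genes overlapped and Abca1 was lower. CPM was divided by the length of the longest coding transcript in kilobases, which is a rough scale because the mix of transcripts is unknown. The median over the libraries was 26.3 CPM per kilobase for Abcb1a, 25.9 for Abcc1, 25.7 for Abcb1b, 18.7 for Abcg2, 17.0 for Abcc5, 3.03 for Abca1 and 0.0216 for Abcc4. The ranges of the first 5 overlapped, from 9.79 to 47.9 CPM per kilobase for Abcg2 and from 20.2 to 37.9 for Abcc1. Abcg2 was the lowest of these 5 in library 8 and the highest in library 9, so its place was not fixed across libraries. Abcc5 was below Abcb1a, Abcb1b and Abcc1 in every library. In library 9 Abcg2 held 26.8% of the summed CPM of the 7 genes, and in library 8 it held 10.55%. The summed level was 803, 947 and 1021 CPM in libraries 3, 6 and 9 and 530.4 to 735 CPM in the other 6.

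The sequences before the starts of 3 of the genes are shown because these genes differ in how their levels are arranged: Abcg2 and Abcb1b were highest in libraries 3, 6 and 9, and Abca1 was highest in libraries 1 to 3. Each is the 250 bases before a RefSeq start on GRCm38.p6, written 5′ to 3′ on the gene's strand. For Abcg2, which has 3 such starts in RefSeq, the one 1 base from the start of its longest coding transcript in GENCODE M21 is given. Capitals mark matches, on either strand, to the GC box GGGCGG, the antioxidant response core TGACNNNGC, the hypoxia response core ACGTG and the TATA box TATAAA.
Abcg2, chr6:58596422-58596671, plus strand: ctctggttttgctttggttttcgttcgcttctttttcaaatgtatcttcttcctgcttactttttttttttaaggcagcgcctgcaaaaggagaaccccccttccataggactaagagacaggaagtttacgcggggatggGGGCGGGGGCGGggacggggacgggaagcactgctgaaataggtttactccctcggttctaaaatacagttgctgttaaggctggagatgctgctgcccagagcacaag
Abcb1b, chr5:8797897-8798146, plus strand: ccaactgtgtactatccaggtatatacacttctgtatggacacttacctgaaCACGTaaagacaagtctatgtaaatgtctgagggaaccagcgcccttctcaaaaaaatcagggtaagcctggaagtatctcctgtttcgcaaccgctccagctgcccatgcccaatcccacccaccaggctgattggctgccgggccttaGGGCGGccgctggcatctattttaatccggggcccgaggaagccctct
Abca1, chr4:53159896-53160145, minus strand: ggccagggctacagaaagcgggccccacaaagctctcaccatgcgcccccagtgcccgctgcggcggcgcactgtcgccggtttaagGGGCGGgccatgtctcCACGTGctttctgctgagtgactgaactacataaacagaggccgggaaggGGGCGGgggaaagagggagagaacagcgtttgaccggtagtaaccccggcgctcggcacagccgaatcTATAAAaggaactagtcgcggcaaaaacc

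RefSeq gives 9 such windows for 6 of the 7 genes, and 5 of the 9 held a GC box, as 32.7% of all 32851 promoter windows of that length do. These 5 include the 3 shown, and the windows of Abcb1a and Abcc5 held none. The RefSeq start of the Abcb1a window lies 92986 bases from the nearest GENCODE M21 start of that gene. That of an Abcc4 window lies 29274 bases from the nearest. Both windows are among the 9, and they do not describe the sequence before those GENCODE starts. The window shown for Abcg2 held 2 GC boxes side by side, at -109 and -103 from the start. Its other windows, counted separately among the 9, held 0 and 4. The windows of Abcb1b and Abca1 also held the hypoxia response core (3 of the 9 windows, 16.6% of all windows), in Abca1 as the palindrome CACGTG, which matches on both strands at -147 and -146. Abca1 alone of the 3 held a TATA box (1 of the 9 windows, 12.4% of all windows), at -29. None of the 3 held the antioxidant response core (2 of the 9 windows, 10.2% of all windows), which says only that these letters are not in these 250 bases. The matches are descriptions of sequence and do not show that a factor binds there.

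The genes most like each variable transporter were found by the mean absolute difference of centred log2 CPM over the 9 libraries, among 9833 genes with a mean of at least 5 CPM. The nearest to Abcg2 was Abcg1, its subfamily relative that exports sterols, at 0.21, followed by Cd36, a fatty acid receptor, at 0.24 and Fabp5, a fatty acid binding protein, at 0.24, where the median gene was at 0.68. Cd36 reached 121 CPM in library 6 and was lowest in library 8 at 22.3 CPM, and Fabp5 reached 232 CPM in library 9 and was also lowest in library 8, at 70.05 CPM. Near to Abcb1a were Chdh, a choline dehydrogenase, at 0.12, and Adhfe1, an alcohol dehydrogenase, at 0.13 (median gene 0.39). The nearest to Abcb1b were Celf1, an RNA-binding protein, and Adhfe1, both at 0.07, and Amn1 at 0.11 (median gene 0.32).

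The nearest to Abca1 was Hsd11b1, an enzyme that activates glucocorticoids, at 0.08, reaching 285 CPM (library 2) with a minimum of 93.6 CPM (library 7). H2ac18, a histone gene from a family of near-identical copies whose counts are uncertain, followed at 0.13 and Rtl8a at 0.15 (median gene 0.48). Among the transporters themselves, 15 genes were nearer to Abcb1a than Abcb1b was, and 22 were nearer to Abcb1b than Abcc5 was. Abca1 stood away from the other transporters, with 2783 genes nearer to it than Abcb1a, the nearest of them.

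The rest of the ABC family was measured alongside. Of 46 other family genes, 26 passed the filter, 25 of these varied beyond counting noise, against 94.1% of all tested genes, and 9 were variable, against 28.0% (median range 0.88 in log2 CPM, against 0.69). Another 19 stayed under 1 CPM in every library, 3 of them at 0 counts throughout. Abcg1 was the one measured gene of its subfamily besides Abcg2 and was variable, with 15.5, 13.4 and 24.96 CPM in the run 1 to 3, 17.1, 11.3 and 31.4 CPM in the run 4 to 6, and 17.04, 8.95 and 29.5 CPM in the run 7 to 9. Like Abcg2 it was higher in libraries 3, 6 and 9 than in the other 6.

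**Figure D3:**
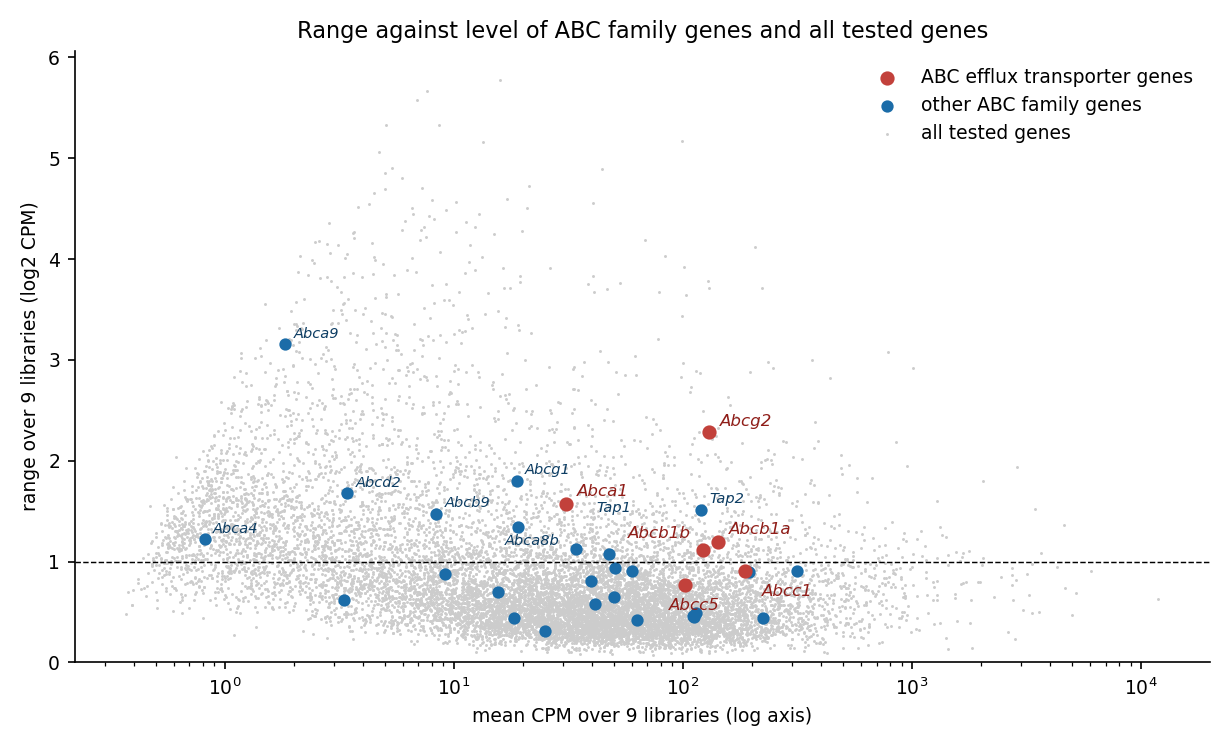
Range over the 9 libraries in log2 CPM against mean CPM (log axis) for the 6 transporter genes above the filter, the 26 other ABC family genes above it and all 12813 tested genes. The dashed line marks the 2-fold threshold. Abcg2, at a range of 2.29, lies above the other 5 transporter genes, and Abca9 has the widest range of the family genes plotted, at a mean of 1.84 CPM.

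Abcd2, Tap1 and Abcb9, transporters of fatty acids or peptides, were highest in libraries 2, 5 and 8. Abcd2, which acts in peroxisomes, had 4.63, 4.64 and 5.69 CPM there and at most 3.57 CPM in the other 6. Tap1, a subunit of the peptide transporter of antigen presentation, had 68.5, 67.4 and 64.6 CPM in libraries 2, 5 and 8, against at most 50.4 CPM in the others, while the other subunit, Tap2, ranged 2.86-fold from library 2 (179 CPM) to library 9 (62.5 CPM). Abcb9, a lysosomal peptide transporter, was highest in the same 3 libraries at 12.02, 11.2 and 13.06 CPM. In all, 7 of the 26 other family genes had libraries 2, 5 and 8 above the other 6 and 8 had them below, against 19.0% and 20.1% of tested genes, and 0 of the 6 transporters did either.

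In subfamily A, Abca9 had the widest range of the family genes that passed the filter, with 4.04, 3.88 and 2.74 CPM in libraries 2, 5 and 8 and 0.396 to 1.44 CPM in the others. Abca8b was lowest in the same libraries, at 21.5, 20.8 and 23.5 CPM, against at least 33.00 CPM elsewhere. Abca4, the third variable gene of subfamily A, reached only 1.21 CPM. Its call was lost without library 2, without library 7 and with a negative binomial dispersion of 0.01. With a filter of a mean of at least 1 CPM it was not tested, its mean being 0.818 CPM. Abca7, the most abundant gene of that subfamily besides the transporters described, ranged from 96.0 to 135 CPM. Subfamilies E and F, whose soluble products do not transport, held no variable gene: Abce1, which recycles ribosomes, lay between 407 CPM (library 9) and 216 CPM (library 2), and Abcf1, a translation factor, between 258 CPM (library 7) and 190.0 CPM (library 2). Abcd3, another peroxisomal transporter, ranged from 95.5 to 131 CPM with libraries 3, 6 and 9 above the other 6, and Abcc10, the most abundant measured gene of subfamily C outside the 7, from 6.58 to 12.1 CPM.

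**Figure D4:**
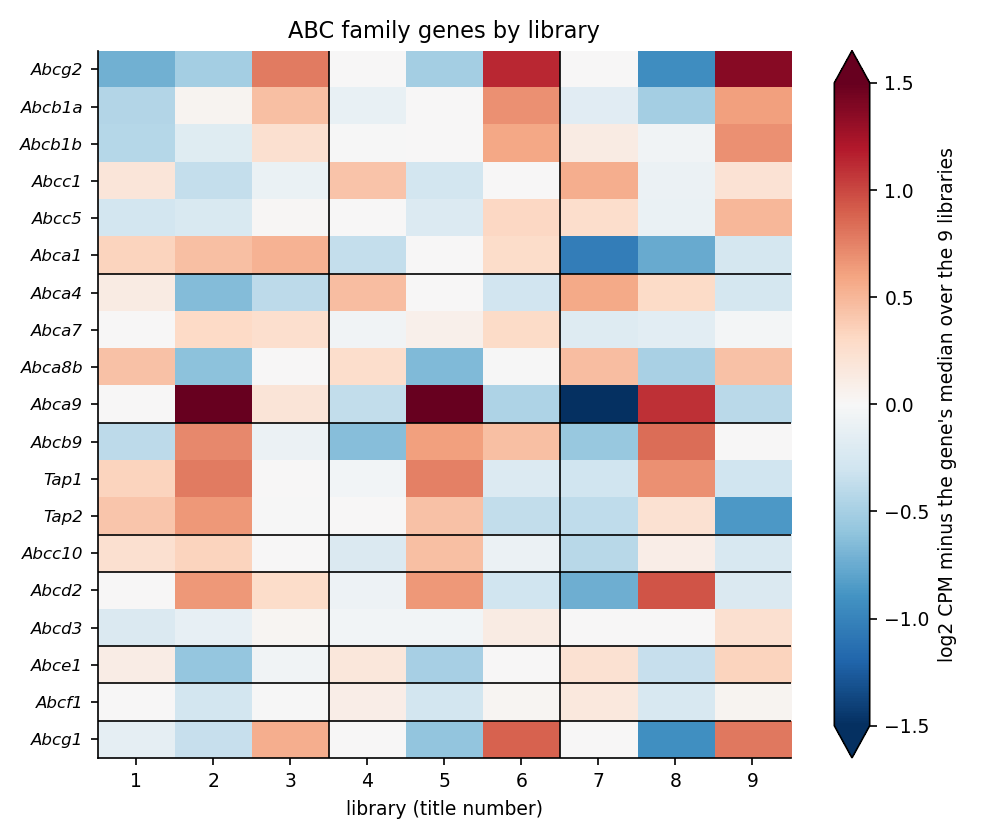
Log2 CPM of the 6 transporter genes and 13 other ABC family genes, each minus its own median over the 9 libraries (colour scale cut at -1.5 and 1.5). Rows are grouped into the 6 transporter genes at the top and subfamilies A to G below, and vertical lines part the 3 runs of title numbers. Abcg2, Abcb1a, Abcb1b and Abcg1 are highest in libraries 3, 6 and 9, and Abcd2 and Tap1 in libraries 2, 5 and 8.

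Genes known to act on these transporters were measured as well. Of 27 measured transcription factors and other regulators 8 were variable, a share near the 28.0% of all tested genes (median range 0.70 in log2 CPM, against 0.69). The liver X receptor genes Nr1h3 and Nr1h2, whose products induce Abca1 and Abcg1, were not variable: Nr1h3 lay between 64.1 CPM (library 6) and 39.5 CPM (library 8), and Nr1h2 between 85.6 CPM (library 6) and 72.4 CPM (library 9). For Nr1h3, as for Abcg1 and Abcg2, libraries 3, 6 and 9 lay above the other 6, an arrangement of 5.15% of tested genes. Nfe2l2, which encodes NRF2, an inducer of ABC exporters under oxidative stress, lay between 246 CPM (library 9) and 133 CPM (library 5). It varied beyond counting noise but, at 1.85-fold, was likewise not variable. RNA levels of these regulators do not show the activity of their proteins, which was not measured. The regulators of widest range were Gli1, a target of Hedgehog signalling, with 11.1 CPM (library 8) and 1.71 CPM (library 1) as its extremes, and Esr1, the oestrogen receptor gene, with 15.8 CPM (library 2) and 3.61 CPM (library 9). The other variable regulators were Myc, Epas1, Ahr, Pim1, Hif1a and Pparg.

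Of 17 measured genes of the liver X receptor response and cholesterol handling 10 were variable, against 28.0% of all tested genes (median range 1.04 in log2 CPM, against 0.69), and 6 were without library 1. The widest ranges among these 17 were those of Abcg1 and of Apoe, an apolipoprotein that accepts lipid from ABCA1. Apoe had 286, 405 and 355 CPM in libraries 1, 2 and 3, 243, 245 and 303 CPM in libraries 4, 5 and 6, and 177, 122 and 195 CPM in libraries 7, 8 and 9. As with Abca1 and 12.6% of all tested genes, each library of a later run was lower than the one at the same place in the run before. Apoa1, the other main acceptor, reached at most 0.0989 CPM and was not tested.

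Glutathione supply and conjugation provide substrates for Abcc1. Of 16 measured genes of these steps and of other redox enzymes, 8 were variable, against 28.0% of all tested genes (median range 0.99 in log2 CPM, against 0.69). Slc7a11, the cystine transporter that feeds glutathione synthesis, had 100.3, 79.2 and 86.9 CPM in libraries 2, 5 and 8, where Abcc1 was lowest in its run, and 433 to 632 CPM in the other 6. Libraries 2, 5 and 8 lay below the other 6 for 20.1% of all tested genes, and the second library was lowest in every run for 29.5%. A link between Slc7a11 and Abcc1 was not tested. Mgst2, a glutathione transferase of membranes, lay between 9.09 CPM (library 1) and 1.39 CPM (library 7).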

How the data were processed

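The authors deposited 1 table of expected counts per gene (estimated counts, already whole numbers and not normalised) for 9 libraries. Per the submitters' processing notes, the build was GRCm38 and the tools included STAR 2.7.8a, RSEM 1.3.3, cutadapt 2.3 and FastQC 0.11.8, in no stated order. The sources used here name neither the annotation release nor whether strand was used, so overlapping antisense genes may share reads.

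The table's 9 count columns were matched to sample titles, and 0 were left over. TMM factors were computed with edgeR 4.0.16 in R 4.3.3 on genes with edgeR's default minimum in every library (10 counts at median depth, 15 in total) (12813 genes with 99.9% of counts), and log2 CPM used a prior count of 2. Each gene's counts were tested for dispersion over the libraries with a chi-square test, adjusted by Benjamini-Hochberg. With no groups, edgeR's quasi-likelihood test has no coefficient to test. In simulated counts for this test, 47 of 50 genes changed 2-fold in 1 library and 50 of 50 changed 3-fold were called variable, and so were 2 of 13159 unchanged genes. The simulated counts held counting noise only, and changes were planted in genes with a mean of at least 5 CPM. The 2 calls therefore give no rate of false calls between real libraries, which differ by more than counting noise. Ratios carry exact conditional binomial 95% intervals, levels exact Poisson ones. They cover counting error only, since PCR duplicates cannot be recognised. No 2 libraries were alike within counting noise (mean chi-square per gene at least 16.7 with 1 degree of freedom).

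The members and lists were chosen with earlier results of these data known. Their counts and median ranges beside those of all tested genes therefore show nothing particular to them. Named genes are the 7 members, every variable gene and the most abundant measured gene of each other subfamily, the 2 measured genes of widest range in each related list, Mki67 and, per variable member, the 3 genes of most alike pattern. Results for 2 genes chosen by this rule were left out. Nr1h2, Nr1h3, Nfe2l2, Apoa1 and the variable regulators other than Gli1 and Esr1 were named after their values were seen. Coordinates, transcripts and lengths are from GENCODE M21 (GRCm38). RefSeq promoter windows (GRCm38.p6) matched 6 of the 7 genes. Alternatives tried were other size factors, other filters, a smaller prior count, added dispersion, a 1.5-fold threshold and leaving out each library.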

Additional observations from a re-analysis of the deposited data

How the results depend on the processing

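The count of 4 variable transporter genes was the same with RLE size factors, library totals alone, no filter, a mean of at least 1 CPM, a prior count of 0.5 and a negative binomial dispersion of 0.01. It was 3 to 4 when 1 library at a time was left out, the lower value without library 1, when the range of Abcb1b was 0.865 in log2 CPM (0.865 to 1.12 over all libraries left out). With a threshold of 1.5-fold all 6 were variable, at ranges of 0.906 for Abcc1 and 0.766 for Abcc5. That threshold also gave 17 variable genes among the other ABC family, 16 regulators, 14 glutathione and redox genes and 10 other export genes. Over all tested genes it gave 7267. With no filter 43 other family genes were tested and 16 were variable, and 6412 of 27105 genes were. The genes of cholesterol handling numbered 6 to 10 variable when 1 library was left out, the lowest without library 1. The arrangements by title number held for the same transporter genes with RLE size factors and with library totals alone, 2 checks chosen after seeing the data. No paired analysis was possible because no library has a group. Depth limits what can be read of Abcc4 and Abca4, which had few counts.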

Other observations

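Genes of transport that do not belong to the ABC family were measured too. Of 15 measured genes of other export routes, uptake carriers and membrane scaffolds 4 were variable, a share near the 28.0% of all tested genes (median range 0.75 in log2 CPM, against 0.69). Slco4a1, an organic anion uptake carrier, had the widest range of these 15. It stood at 4.15, 1.34 and 8.66 CPM in the run 1 to 3, 9.10, 2.53 and 16.9 CPM in the run 4 to 6, and 16.99, 5.34 and 27.0 CPM in the run 7 to 9. It was thus highest in the third library and lowest in the second of every run, and higher in each later run at every place. Taken singly, these arrangements were shown by 12.1%, 29.5% and 13.5% of all tested genes. Cav1, which encodes the scaffold protein caveolin 1, had 187, 267 and 334 CPM in libraries 2, 5 and 8 and 110.3 to 181 CPM in the other 6. Libraries 2, 5 and 8 lay above the other 6 for 19.0% of all tested genes.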
